A study of Drosophila melanogaster with 12 samples.

Results

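Long noncoding and other noncoding genes of the Drosophila melanogaster ovary were examined in 2 experiments on the germline differentiation factor Bag of marbles (Bam). The genes were taken by name and by measured abundance. A gene was included if its FlyBase symbol began with lncRNA: or asRNA: or was CR plus digits, roX1 and roX2 excepted, and if it either had at least 60 counts summed over the 6 RIP-seq libraries or stood in the deposited RNA-seq table. By this rule 304 of 17820 genes were members, out of 2637 symbols of this kind. Of these, 136 had at least 60 counts and 225 were listed in RNA-seq, with 57 in both sets, 79 chosen by counts only and 168 by listing only.

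The RNA-seq experiment compared FACS-sorted GFP-positive germ cells of vas-GFP; bam_delta86/bam_delta86 ovaries, called bam-/-, with those of vas-GFP ovaries, with 3 samples in each group. Both genotypes carry vas-GFP, which marks the germline through the Vasa protein, and bam_delta86 is a deletion of most of the bam locus. The RIP-seq experiment sequenced RNA that came down on GFP-trap beads from whole ovaries of Bam-fTRG-GFP flies (Bam-GFP, a tagged bam transgene), with Bam-Gal4::UASp-GFP flies, in which the bam driver makes free GFP, as the GFP control, again with 3 samples in each group. Ages of the flies were not given, and nothing says that samples of a group came from separate crosses, so that p-values measure only the spread between these samples.

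Long noncoding RNAs are transcribed by RNA polymerase II and often spliced and polyadenylated like mRNAs, but they are not translated into a known protein. Some act as RNA, as Hsromega does when it gathers hnRNP proteins in nuclear omega speckles, and others are precursors of small RNAs, as flam is for the Piwi-interacting RNAs that silence transposons in somatic follicle cells. Many fly members of this class lie within, or antisense to, a protein-coding gene and have no known function.

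The name long noncoding RNA was not right for all members. The RefSeq annotation, in which all 304 were found, typed 213 as lncRNA, 56 as antisense RNA and 35 as pseudogene, the last being all the members with a plain CR number. Members were short, with a median genomic span of 1019 bases for lncRNA, 1686 for antisense RNA and 1281 for pseudogenes. A protein-coding gene overlapped 172 members (56.58%). This was so for all 56 antisense RNAs, for 105 lncRNAs (49.3%) and for 11 pseudogenes (31.43%). Of all members 70 (23.03%) lay on X, against 17.45% of the genes tested in RIP-seq. RNA-seq libraries were unstranded and the RIP-seq counting is not stated to use strand, so that reads of a member and of a gene it overlaps cannot be told apart, and counts of pseudogenes are uncertain where a near-identical copy exists.

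RIP-seq libraries held between 7697440 and 12704088 counts on genes. Between 51532206 and 85497154 further alignments per library fell on several places of the genome and were not counted. Transcripts of bam had 51.5, 50.1 and 46.8 CPM (counts scaled to a common library size with TMM factors) in Bam-GFP and 16.7, 11.7 and 3.32 CPM in the GFP control, 2.47 higher on the log2 scale (SE 0.57, edgeR adjusted p = 0.00188). Most markers of follicle cells, the somatic layer around the germline cysts, were also higher in Bam-GFP. Yp1 was level (log2 fold change 0.06) and Fas3 was lower (-0.51, SE 0.45, adjusted p = 0.895). Of 11 markers, 6 passed the test upwards and 0 downwards, and their summed level was 7590 to 14600 CPM in Bam-GFP and 3320 to 5870 CPM in the control. The part of these cells in the results on members was not tested. Germline markers passed the test upwards in 2 of 7 cases, osk and bam, with summed levels of 3790 to 6100 and 2970 to 4310 CPM. Of 8 testis markers, Mst84Da, Mst87F, dj, can and aly were at 0 in every library, betaTub85D had 3 counts and fzo 65 in all, and twe, a Cdc25 phosphatase gene of meiosis, made up nearly all of the summed 89.9 to 121 CPM in Bam-GFP and 91.3 to 94.5 CPM in the control.

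A few members held most of the RIP-seq counts on this class when the 6 libraries were summed. The 4 members with the most counts took 78.8% of the 262589 counts on members and the first 10 took 85.7%. These 4 were lncRNA:CR40469, lncRNA:CR42862, lncRNA:CR34335 and lncRNA:Hsromega. By library, the members outside these 4 took 0.119%, 0.0972% and 0.0645% of gene counts in Bam-GFP and 0.0848%, 0.109% and 0.105% in the control. All members together took 1.13% of gene counts in Bam-GFP 1 (95% Wilson interval 1.121 to 1.133%), 0.477% in Bam-GFP 2 and 0.113% in Bam-GFP 3. In the GFP control they took 0.219%, 0.44% and 0.277%. The control lay within the range of Bam-GFP, whose highest and lowest libraries were also the highest and lowest of all 6. CR40469 alone accounted for 73.0% of the member counts in Bam-GFP 1 and 54.2% in Bam-GFP 2, and without it the shares were 0.304%, 0.218% and 0.0951% in Bam-GFP and 0.185%, 0.382% and 0.235% in the control. These intervals cover counting error only, since PCR reads are not independent molecules.

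**Figure D1:**
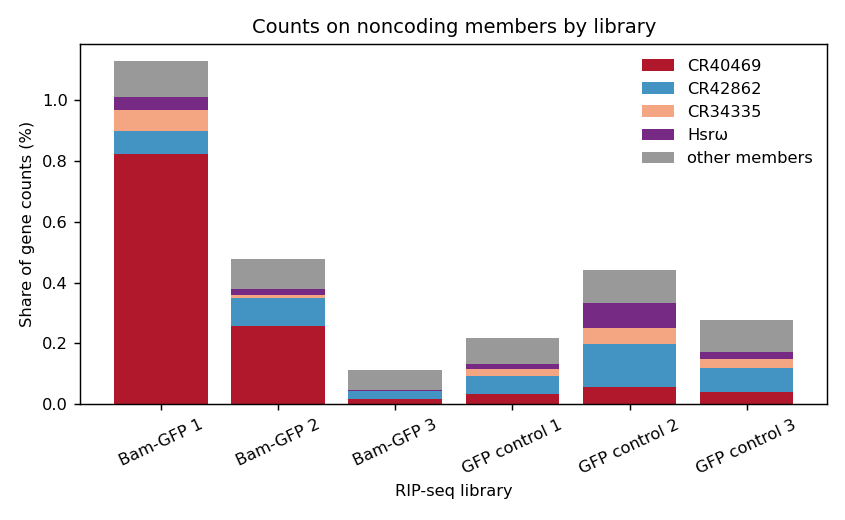
Share of all gene counts (%) that fell on the noncoding members in each of the 6 RIP-seq libraries, stacked by the 4 members with the most counts and all others. The bar of Bam-GFP 1 reaches 1.13%, most of it CR40469, and that of Bam-GFP 3 reaches 0.113%, below every control library.

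CR40469 (FBgn0058469) is a gene of 214 bases at X:122493-122706 (Release 6 assembly), near the end of the X chromosome, and overlaps no coding gene. It had 10188, 2468 and 193 CPM in the 3 Bam-GFP libraries and 299.7, 521 and 409 CPM in the control libraries. Bam-GFP 1 and 2 were far above the control and Bam-GFP 3 was below it, so that the groups overlapped. The fitted log2 fold change of Bam-GFP over control was 2.14 (SE 2.19, adjusted p = 0.895). Without Bam-GFP 3 it was 3.95 with an adjusted p of 2.92e-10. This fit, like each fit without a single library, also lacked the replicate block of the main fit. With all libraries and no block the log2 fold change was 3.38 (adjusted p = 0.492). With both libraries numbered 3 left out and the block kept, it was 3.67 with an adjusted p of 1.13e-11. The call thus came only in the fits without Bam-GFP 3, while the fold change rose with either change alone. Per kilobase of genomic span, introns included, CR40469 had the highest level of all members, with a mean of 10965 CPM per kb over the 6 libraries and 3636 CPM per kb without Bam-GFP 1, where it was still first and CR34335 followed at 592.

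CR42862 (FBgn0262109, 3L:224106-230964) overlaps the coding gene CG33229 and had the highest mean normalized count of the members in sorted germ cells, not divided by length. Its level in RIP-seq was 907, 876 and 258 CPM in Bam-GFP and 522, 1259 and 783 CPM in the control. The libraries of both groups were intermixed, with a log2 fold change of -0.45 (SE 0.33, adjusted p = 0.837). CG33229 had a log2 fold change of -0.65 (SE 0.36, adjusted p = 0.624).

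CR34335 (FBgn0267910, X:3545750-3546110) lies in the span of DIP-alpha, which encodes a cell surface immunoglobulin protein of neurons. It had 878, 92.1 and 9.83 CPM in Bam-GFP and 214, 469 and 283 CPM in the control. Bam-GFP thus spanned the whole control range and the log2 fold change of -1.95 had an SE of 2.55 (adjusted p = 0.895). With both libraries numbered 1 left out the log2 fold change was -3.57 with an adjusted p of 1.39e-12, and without a replicate block it was 0.02. DIP-alpha itself had a log2 fold change of 0.36 (SE 0.57, adjusted p = 0.895).

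Hsromega (FBgn0001234, 3R:21296127-21317836), the heat shock RNA that organizes omega speckles, was measured at 507, 188 and 59.1 CPM in Bam-GFP and at 148, 740 and 231 CPM in the control. The highest and the lowest library differed by more within each group than the group means of 251 ± 231 and 373 ± 321 CPM (SD, n = 3) did from each other. Its log2 fold change was -0.87 (SE 0.62, adjusted p = 0.848). With both libraries numbered 1 left out it was -1.97 with an adjusted p of 9.01e-05, and without GFP control 2 it was 0.41. With all libraries but no replicate block it was -0.57. Of the proteins known to bind this RNA, 7 of 8 were found and 0 of their transcripts passed the adjusted threshold in either direction. Their summed level was 3940 to 6540 CPM in Bam-GFP and 3880 to 6940 CPM in the control. The nearest to a change was Saf-B, at 415, 176 and 316 against 141, 137 and 188 CPM (log2 fold change 0.89, SE 0.32, adjusted p = 0.149).

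The spread between replicates was larger for members than for other genes. Of the 136 members with at least 60 counts, 53 (38.97%) had more than 50% of their counts in 1 library, against 6.168% of other genes with as many counts. Members also had lower counts, with a median sum of 156.5 against 2295 for all genes above the threshold. At 300 to 1000 counts the shares were 24.0% of 25 members and 6.012% of 1314 other genes, and at 60 to 120 counts they were 56.36% of 55 members and 47.49% of 419 other genes. The library with the highest CPM was Bam-GFP 1 for 41 members (30.1%, other genes 23.2%) and GFP control 2 for 33 (24.3%, other genes 21.6%). The median standard error of the log2 fold change was 1.88 for these members and 0.49 for all genes with at least 60 counts.

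Bam-GFP and control were compared with edgeR's quasi-likelihood test, fitted on the 10971 genes that had a count in some library, among them 239 members. At an adjusted p under 0.05, 2 of the 239 members were higher in Bam-GFP (0.837%), beside a background of 1.72% of all tested genes, and 0 were lower, beside 0.474%. All members with a call were among the 136 with at least 60 counts, where the shares were 1.47% higher and 0% lower, beside 2.52% and 0.692% of the 7513 genes above that threshold. At an unadjusted p under 0.05, 9 of the 136 were higher (6.62%, background 8.03%) and 4 were lower (2.94%, background 5.86%). DESeq2's Wald test is given over all 239 tested members, not the 136. At its adjusted p it called 5 members higher (2.09%, beside 2.77% of all tested genes) and 0 lower (beside 0.948%). At its unadjusted p it called 19 higher (7.95%, beside 6.71%) and 12 lower (5.02%, beside 4.71%). Over the same 239 members edgeR's unadjusted counts stayed at 9 and 4. When single libraries or both libraries of a number were left out, the count called higher ran from 0 without the libraries numbered 1, where 1.09% of all tested genes were called, to 7 without Bam-GFP 2 (3.04%, beside 3.1%). The count called lower was 0 except without Bam-GFP 1, when it was 1 (0.431%, beside 0.66%), and without both libraries numbered 1, when it was 3 (1.35%, beside 0.37%).

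The 136 members had a median log2 fold change of 0.17, and 75 of them (55.15%) were above 0. All genes with at least 60 counts had a median of -0.04 with 47.45% above 0. Without the 10 members at 0 in all libraries of 1 group, the members' median was 0.11. Setting those 10 to the bound given by 3 counts per library left it at 0.17. That setting keeps each of them on its side of 0, so that it could hardly move the median. The standard deviation of the members' median log2 ratio over the 3 replicate numbers was 0.316, more than the distance of their median from that of all genes. This spread takes libraries as paired by number, which is undecided, and it is not a standard error. Without Bam-GFP 1, in a fit that had no replicate block, the median was -0.36. With all libraries and no block it was 0.11. Medians over tested members were 0.24 for lncRNA, -0.23 for antisense RNA and -0.71 for pseudogenes, with a median SE above 2 in each class (2.91, 2.79 and 2.37).

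**Figure D2:**
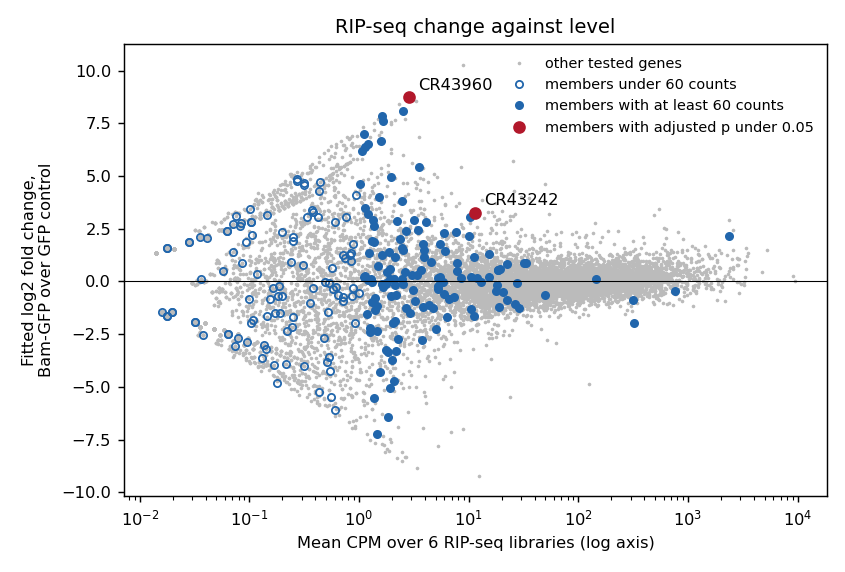
Fitted log2 fold change of Bam-GFP over GFP control against the mean CPM of the 6 RIP-seq libraries (log axis) for all 10971 tested genes, with members in blue and the 2 members past an adjusted p of 0.05 in red. Members spread widely around 0, with a median of 0.17 for those with at least 60 counts, and most lie at low CPM.

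Of the members called higher, CR43960 had no counts in the control. This lncRNA (FBgn0264675, X:12043698-12116041) had 65, 10 and 106 counts in the Bam-GFP libraries, or 6.90, 1.24 and 8.91 CPM, and 0 counts in each control library. Every Bam-GFP library was above every control library, and its mean was at least 17.8-fold higher than the level of 3 counts per control library (adjusted p = 0.0199). It was listed in sorted germ cells at a mean normalized count of 54.8. The span of CR43960 overlaps 8 coding genes, among them Ten-a, which encodes a transmembrane teneurin known from synapse formation.

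Ten-a was higher in Bam-GFP as well, at 93.7 ± 41.3 CPM against 5.22 ± 4.45 CPM in the control (SD, n = 3), a log2 fold change of 4.63 (SE 0.52, adjusted p = 3.76e-15). Reads from introns of Ten-a and from CR43960 cannot be told apart. Another member within Ten-a, CR43961 (FBgn0264676, X:12067200-12070139), had 1.38, 2.47 and 5.13 CPM in Bam-GFP and 5.68, 8.91 and 4.82 CPM in the control, with a log2 fold change of -1.27 (SE 1.25, adjusted p = 0.895). It was named after its values were seen. The other tested genes in the span were Uch-L5R, Muc11A, CG2750 and moon, a germline factor for transcription of piRNA clusters, and 0 of these 4 passed, with adjusted p from 0.564 to 0.895. The call of CR43960 itself was lost with library size only (adjusted p = 0.0554) and with edgeR's filter on low counts (0.0776). It was 0.0647 without GFP control 1 and 0.11 without Bam-GFP 3, and without both libraries numbered 1, 2 or 3 it was 0.161, 0.056 and 0.457.

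The other member called higher, CR43242 (FBgn0262887, 2L:23069005-23070724), overlaps no coding gene. It had 57.2, 1.48 and 5.88 CPM in Bam-GFP and 1.99, 1.17 and 0.321 CPM in the control. Bam-GFP 1 was far above all other libraries, and Bam-GFP 2 was below GFP control 1, so that the groups overlapped. The log2 fold change was 3.26 (SE 0.99, adjusted p = 0.0477), and it was 1.66 with an adjusted p of 0.76 without Bam-GFP 1. With all libraries but no replicate block it was 4.19 (adjusted p = 0.000157). With both libraries numbered 1 left out the adjusted p was 0.926, and with both numbered 3 left out it was 0.339.

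CR44289 (FBgn0265316, 3R:27535831-27537903) lay next to the threshold. Its level was 36.5, 17.4 and 3.19 CPM in Bam-GFP and 2.37, 1.17 and 1.498 CPM in the control. All 3 Bam-GFP libraries were above all 3 control libraries, with a log2 fold change of 3.04 (SE 0.94, adjusted p = 0.0538). DESeq2 gave it an adjusted p of 0.00401, while it was 0.171 with library size only, 0.288 without Bam-GFP 1 and 0.646 without both libraries numbered 1, with a range of 0.000937 to 0.646 over the alternatives.

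Groups that did not overlap were found for 20 of the 136 members. In 13 members (9.56%, background 8.47%) every Bam-GFP library was above every control library, and in 7 (5.15%, background 9.64%) every Bam-GFP library was below. The members named next were chosen from these after their values were seen. CR45102 (X:3701857-3703285) had 42.3, 33.3 and 47.5 CPM in Bam-GFP and 28.7, 16.1 and 24.5 CPM in the control, a log2 fold change of 0.85 (SE 0.52, adjusted p = 0.702). The pseudogene CR14033 (2L:5242699-5244239) lies at the locus of tkv, the type I receptor through which Dpp keeps germline stem cells. It had 18.0, 28.2 and 18.8 CPM in Bam-GFP and 8.05, 7.62 and 10.2 CPM in the control, with a log2 fold change of 1.31 (SE 0.70, adjusted p = 0.569). The values of tkv were 169 ± 17.8 and 117 ± 22.5 CPM (SD, n = 3; log2 fold change 0.55, SE 0.34, adjusted p = 0.716), so that member and receptor had the same sign and neither passed.

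On the other side CR30055 (2R:12589239-12591395), within the gene of the corepressor Sin3A, had 43.1, 42.8 and 28.9 CPM in Bam-GFP and 51.0, 46.7 and 83.04 CPM in the control, a log2 fold change of -0.62 (SE 0.45, adjusted p = 0.825). CR32027 (3L:18841579-18842786), within Indy, a citrate transporter gene known for its effect on fly lifespan, had 4.67, 27.3 and 26.8 CPM against 34.9, 30.6 and 35.4 CPM (log2 fold change -1.09, SE 0.59, adjusted p = 0.592). The libraries of Bam-GFP 2 and 3 were close to the control and Bam-GFP 1 was far below it. None of the other members of this kind passed the adjusted threshold, CR43960 excepted.

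**Figure D3:**
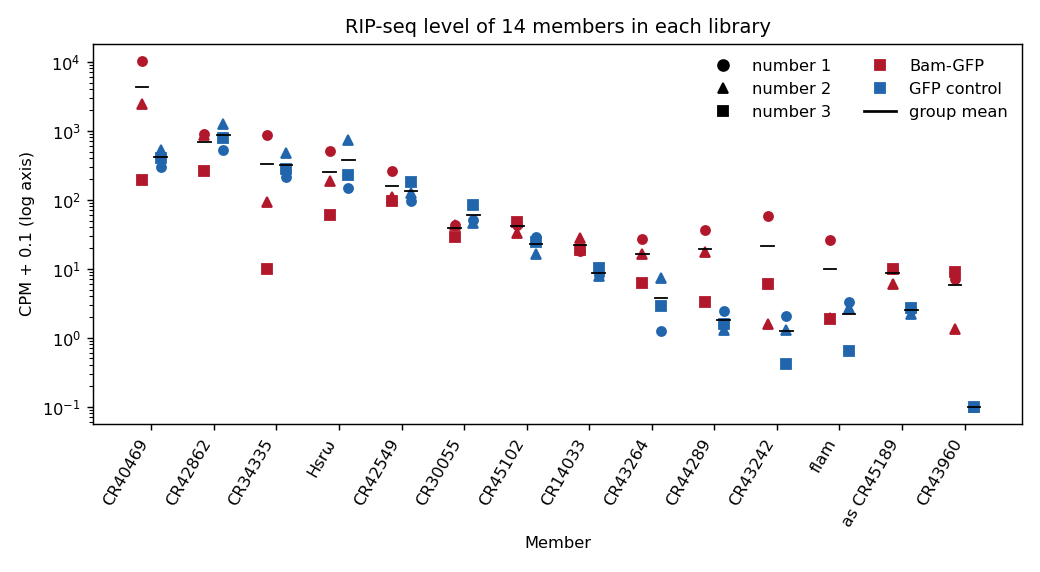
Level of 14 members in each RIP-seq library as CPM + 0.1 on a log axis, with Bam-GFP in red, GFP control in blue, symbols for the replicate number and a black line for the mean of the group. For CR40469 and CR34335 the 3 Bam-GFP points lie on both sides of the control, while for CR43960 every control point is at 0 CPM.

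Antisense RNAs overlap a coding gene on the opposite strand and can in principle pair with its transcript. Of the 27 with at least 60 counts, 25 overlapped a tested coding gene. Taking for each the coding partner with the most counts, the fold changes of member and partner had the same sign in 15 of 25, with a Spearman correlation of 0.292 across genes, which are not independent and share the libraries. None of these 25 partners and none of the 27 antisense members passed the adjusted threshold. A partner with fewer counts did, CG43902, which CR44894 overlaps beside Ypel and RhoU, at 10.1 ± 14.5 CPM in Bam-GFP and 0.169 ± 0.0995 CPM in the control (SD, n = 3; log2 fold change 4.94, SE 1.51, adjusted p = 0.049), while CR44894 itself had a log2 fold change of -0.23.

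The antisense member with the most counts, CR43460, lies at rdx (roadkill), a ubiquitin ligase adaptor of Hedgehog signalling. It had 31.1, 12.6 and 8.74 CPM in Bam-GFP and 18.3, 72.0 and 30.6 CPM in the control, which overlapped (log2 fold change -1.24, SE 0.60, adjusted p = 0.45). rdx itself was at 1230 ± 389 and 1220 ± 283 CPM (SD, n = 3). Without Bam-GFP 1 the member's log2 fold change was -1.91 with an adjusted p of 0.0179, and without GFP control 2 it was -0.48 with an adjusted p of 0.818.

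CR44029, antisense to the synaptic vesicle priming gene unc-13 on chromosome 4, had 5.94, 8.17 and 2.60 CPM in Bam-GFP and 12.5, 15.4 and 22.3 CPM in the control, without overlap (log2 fold change -1.66, SE 0.83, adjusted p = 0.496). CR45189, antisense to the transcription factor zfh1, known as a somatic stem cell factor of the testis, went the other way, with 9.87, 5.82 and 9.75 CPM against 2.46, 2.11 and 2.57 CPM. These groups did not overlap either, and the log2 fold change of 1.79 had an SE of 1.13 (adjusted p = 0.739). The partner zfh1 was at 114 ± 22.3 and 63.9 ± 17.9 CPM (SD, n = 3; log2 fold change 0.86, SE 0.37, adjusted p = 0.329).

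Precursors of small RNAs were found among the members as flam and as 13 genes whose span holds an annotated miRNA. flam (FBgn0267704, X:21631891-21790731) spans a cluster of transposon remnants, and since reads with several genomic positions were not counted, its counts come only from parts that map to 1 place. It had 26.1, 1.86 and 1.76 CPM in Bam-GFP and 3.22, 2.58 and 0.535 CPM in the control. Bam-GFP 1 held 246 of the 343 counts and the other 5 libraries were between 0.535 and 3.22 CPM, with a log2 fold change of 1.46 (SE 1.19, adjusted p = 0.887). Without Bam-GFP 1 it was -0.22, and with all libraries but no replicate block it was 2.22. flam is made in follicle cells, most of whose markers were higher in Bam-GFP as given above, and the part of this in its values was not tested.

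The list of piRNA cluster and export factors named 14 genes, of which 12 were found and tested. The export factors nxf3 and Nxf1 were not found, and the list took in other piRNA genes such as shu. The median log2 fold change was -0.90, beside -0.05 for all tested genes. Of the 12, 0 passed the adjusted threshold in either direction. At an unadjusted p under 0.05, 3 were lower, namely del, shu and vret, beside 5.86% of all genes with at least 60 counts. Their summed level was 954 to 1070 CPM in Bam-GFP and 1340 to 1590 CPM in the control. del, a subunit of the complex that licenses transcription of dual-strand clusters, was at 329, 286 and 207 CPM in Bam-GFP and 444, 444 and 576 CPM in the control (log2 fold change -0.84, SE 0.32, adjusted p = 0.179). shu, a cochaperone for loading of Piwi proteins, had 21.2, 38.6 and 46.2 CPM against 88.6, 76.3 and 92.8 CPM (log2 fold change -1.34, SE 0.42, adjusted p = 0.0591).

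Of the 13 miRNA-spanning members 11 had at least 60 counts, and 0 of these passed the adjusted threshold. CR43650, which spans mir-8, the fly counterpart of the miR-200 family, was lower in each Bam-GFP library than in any control library, at 3.40, 2.47 and 2.02 against 6.06, 18.6 and 5.24 CPM (log2 fold change -1.69, SE 1.08, adjusted p = 0.745). CR43857, which spans mir-275, had 7.22, 4.08 and 5.46 CPM in Bam-GFP and 0.853, 4.22 and 1.18 CPM in the control (log2 fold change 1.76, SE 1.45, adjusted p = 0.893). In this case GFP control 2 was just above Bam-GFP 2, so that the groups overlapped.

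CR31044, the precursor of mir-279 and mir-996, had 30.7, 9.77 and 11.01 CPM against 5.49, 15.4 and 19.9 CPM. CR43459, with mir-277 and mir-34, had 10.4, 16.0 and 5.63 CPM against 15.5, 27.8 and 2.03 CPM. The libraries were intermixed in both, and the log2 fold changes were 0.23 (SE 0.76) and -0.03 (SE 0.81). CR43836, which spans mir-31b, gave -0.50 (SE 0.62) and the others with at least 60 counts had standard errors above 1, apart from Hsromega. CR46006 (mir-276a) and CR45949 (mir-87), both listed in germ cells at 393.8 and 104 mean normalized counts, had 43 and 2 RIP-seq counts.

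**Figure D4:**
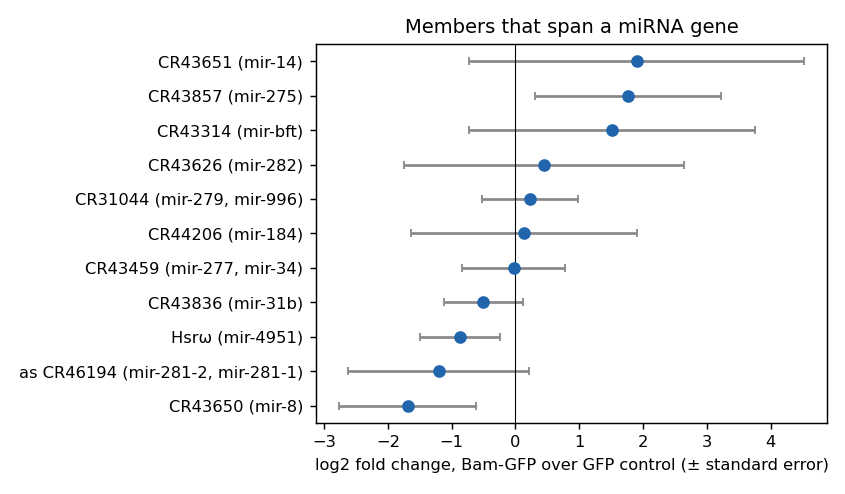
Log2 fold change of Bam-GFP over GFP control with its standard error for the 11 members that span an annotated miRNA and had at least 60 counts, with the miRNA in parentheses. Values run from -1.69 for CR43650 to 1.90 for CR43651, and 0 of them had an adjusted p under 0.05.

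In sorted germ cells, abundance was available as the authors' mean normalized count over all 6 RNA-seq libraries, without values of single libraries, so that it has no error and gives no difference between bam-/- and vas-GFP. The table lists genes that the authors had selected in their comparison, and a gene outside it cannot be called absent. Of the germline markers 5 of 7 were listed, among them aub at 8623 and orb at 9523, and of the follicle cell markers 10 of 11 were, among them the yolk protein gene Yp2 at 41190, so that RNA of follicle cell genes was present in the sorted cells of at least some libraries. Listed members were scarce. Their median was 86.4, with a range of 17.9 to 64066, against 1357 for all 6555 listed genes, and 9 of 225 (4.0%) reached 1000, against 56.2% of all listed genes. Of the members with at least 60 RIP-seq counts 41.91% were listed, and of the other genes with at least 60 counts 64.04% were.

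The highest mean normalized counts were those of CR42862 (64066), Hsromega (12692) and CR43264 (11507). Next came CR42491 (2562), dntRL (1964), CR43857 (1300), CR32368 (1155), the pseudogene CR14033 (1143), CR30055 (1010) and the antisense RNA CR44370 (954), which lies at the Follistatin gene Fs. Longer genes collect more counts. Per kilobase of genomic span the order was CR43264 (36185 normalized counts per kb), CR42862 (9340), CR32368 (2818), CR42491 (2142) and dntRL (1440), with Hsromega at 585.

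Germ cell abundance and RIP-seq level went together less closely in members than in other genes. The Spearman correlation of mean normalized count and mean RIP-seq CPM across genes was 0.4602 for 225 members and 0.8282 for 6247 other listed genes. The 2 sets differ in their range of abundance, and genes are not independent replicates. Below 50 mean normalized counts the median of RIP-seq counts was 4 for 64 members and 1 for 449 other genes. At 50 to 100 it was 4 against 6 and at 100 to 200 it was 17 against 13, and above that members had fewer. At 200 to 500 the medians were 43 for 31 members and 67 for 647 other genes, at 500 to 1000 they were 195.5 and 662, and from 1000 on they were 553 for 9 members and 4130 for 3611 other genes. Among genes with at least 200 mean normalized counts, the median ratio of summed RIP-seq counts to mean normalized count was 0.147 for 54 members and 0.919 for 4939 others. The 2 experiments differed in the RNA taken, as RIP-seq read only RNA held on GFP-trap beads from a cleared lysate. They also differed in cells, library layout and laboratory, and the part of each difference in this gap was not tested.

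CR32368 (3L:7915437-7915846) was the extreme, with a mean normalized count of 1155 and 2 RIP-seq counts in all, both in GFP control 1. CR42491 (X:762615-763810), which overlaps the ribosomal protein gene RpL22 and holds the snoRNA gene snoRNA:Psi18S-531, had 2562 and 22. dntRL (2R:4621118-4622481), one of the few members with a proper name, had 1964 and 67 counts, spread over 5 libraries at 0 to 1.86 CPM in Bam-GFP and 1.28 to 1.71 CPM in the control. In all, 65 listed members had 0 counts in every RIP-seq library. The most abundant of these was lncRNA:alphagamma-element:CR32865 of the heat shock locus, with a mean normalized count of 409.7. A count of 0 allows up to 0.252 to 0.371 CPM in these libraries, the level of 3 counts.

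**Figure D5:**
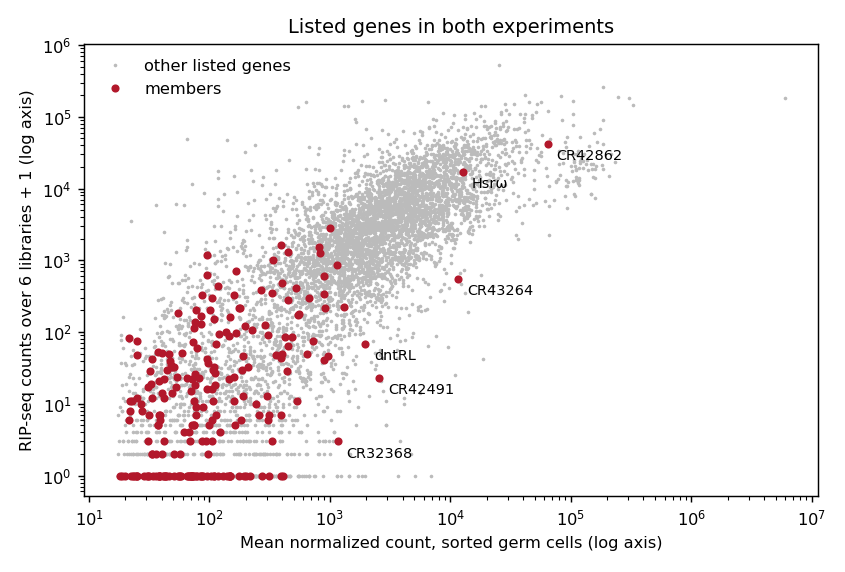
Summed RIP-seq counts plus 1 against the authors' mean normalized count in sorted germ cells, both on log axes, for listed genes found in both tables, with the 225 members in red. Members sit mostly below 200 mean normalized counts. CR32368, CR42491 and dntRL lie far under the median of other genes with at least 1000 mean normalized counts (4130 RIP-seq counts). Of those 3611 other genes, 11 had 0 RIP-seq counts.

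CR43264 (FBgn0262945, X:5831898-5832215) combined a high germ cell level with a RIP-seq difference at the unadjusted threshold. It had 26.6, 16.1 and 6.13 CPM in Bam-GFP and 1.137, 7.15 and 2.78 CPM in the control. Bam-GFP 3 was below GFP control 2, so that the groups overlapped, and the log2 fold change of 2.15 (SE 0.93) had an unadjusted p of 0.0199 and an adjusted p of 0.319. CG15765, the coding gene it overlaps, had 3 counts in all RIP-seq libraries.

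The remaining named members were near the limit of detection in RIP-seq. marge had 77 counts, every one of them in Bam-GFP 2 (adjusted p = 0.604). sphinx, an RNA gene known from Drosophila male courtship behaviour, had 17 counts and mimi had 4, and both were listed in germ cells at 110.9 and 74.6 mean normalized counts. Among other members seen in 1 group only, CR44357 had 2.65, 5.94 and 1.18 CPM in Bam-GFP and 0 counts in the control, at least 10.2-fold higher (adjusted p = 0.15). CR43607 had 0 counts in Bam-GFP and 6.54, 2.23 and 0 CPM in the control, at least 9.31-fold lower (adjusted p = 0.341). Both differences rest on fewer than 100 counts (87 and 88), and neither passed. Each of these members reached the threshold on summed counts through 1 group only. Its fold bound is therefore not independent of that threshold.

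The count threshold of the rule did not fall in a gap. Just inside it were CR46075 with 60 counts, CR44974 with 61 and CR46036 with 62. Just outside it were the antisense RNAs CR44124 and CR45126 with 59 counts each and CR30121 with 57. The counts of CR46075 and CR30121 were uneven, with 47 of 60 in Bam-GFP 1 and 56 of 57 in GFP control 2.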

How the data were processed

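Samples were grouped by the strain in their labels. According to the study's methods, polyadenylated RNA was selected for RNA-seq, and for RIP-seq an mRNA enrichment is named without its kind. By the same methods, reads were mapped with STAR 2.4.0 to FlyBase release 6.05 and counted per gene with HTSeq 0.11.0. For RIP-seq (single-end reads) the deposited table holds raw counts of 6 libraries for 17737 genes, beside a fold change and p-value of the authors' paired test, which were not used. Its columns name the group and a number but carry the titles of RNA-seq samples, so that they were matched to groups only. A further 5 lines name no gene and were left out; ambiguous reads amounted to 4.51 to 5.03% and reads outside genes to 0.872 to 2.84% of a library. For RNA-seq (paired-end reads, DESeq2) the authors deposited 6555 selected genes with the mean normalized count signal over all libraries, which was used as the authors' mean, and with the log2 fold change, standard error, test statistic and p-values of their comparison, which were not used. The depth of RNA-seq libraries is therefore unknown here.

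Counts were fitted with edgeR 4.0.16 (R 4.3.3), using the robust quasi-likelihood test, TMM factors of 0.8073 to 1.13, the replicate number as a block, as the study used a paired test, and Benjamini-Hochberg adjustment over the 10971 genes that had a count in some library. Standard errors were taken from the F statistic. CPM used the same factors. A group at 0 was set to 3 counts per library for bounds. The fit was tested on simulated counts. Gene types, spans and overlaps came from the RefSeq table of the Release 6 assembly, joined by symbol; spans include introns, and no sequences were used here. Alternatives were RLE factors, library size only, DESeq2 1.42.0, filterByExpr, a minimum of 10 counts in each library, a fit lacking the replicate block, and leaving out each library or replicate number. Fits without a single library had no replicate block, so that they differ from the main fit in both respects. Fits without a replicate number kept the block.

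Members and gene lists were chosen with earlier results of these data known. Named members were those with more than a CR number as symbol, those past the adjusted threshold, the 10 highest in each experiment, those next to the count threshold and the genes overlapping a called member. All other members named were chosen after their values were seen, apart from the miRNA-spanning genes, which came from a list.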

Additional observations from a re-analysis of the deposited data

How the results depend on the processing

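Low counts and the spread between libraries set the limits here: 42 of the 304 members had at least 10 counts in every library. Over the alternatives 513 values kept their direction and their side of the threshold, 38 changed sign, 29 gained and 12 lost the threshold; the causes were not tested. The number of members higher in Bam-GFP at an adjusted p under 0.05, which was 2, became 5 with DESeq2 and 0 with at least 10 counts in every library, with filterByExpr or with library size only. In the latter settings 1.58%, 1.4% and 0.984% of all tested genes were called higher. The number of members higher ran from 0 to 7 over left-out libraries and numbers, and that of members lower, which was 0, ran from 0 to 3, with the shares given above. At an unadjusted p under 0.05 the 9 members higher became 19 with DESeq2 (7.95%, beside 6.71% of all tested genes). They became 4 of 42 tested with at least 10 counts in every library (9.52%, beside 7.8%) and 5 of 108 with filterByExpr (4.63%, beside 7.42%). Over left-out libraries and numbers they ran from 8 without both numbered 1 (3.59%, beside 4.76%) to 24 without GFP control 2 (10.2%, beside 5.55%). The 4 members lower became 12 with DESeq2 (5.02%, beside 4.71%) and 7 of 239 with library size only (2.93%, beside 6.97%). They became 2 of 42 with at least 10 counts in every library (4.76%, beside 4.94%) and 0 of 108 with filterByExpr (beside 4.91%). Over left-out libraries and numbers they ran from 1 without both numbered 3 (0.431%, beside 3.88%) to 13 without Bam-GFP 1 (5.6%, beside 4.73%). With library size only the median of all genes moved to -0.26. The members' median of 0.17 ran from -0.36 without Bam-GFP 1 to 0.56 without both libraries numbered 3.

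Libraries with the same number deviated from their group with correlations of -0.153, 0.231 and -0.0509 over 6335 genes. The signs were mixed, and deviations of libraries from the mean of their own small group are not independent of each other. Whether libraries were paired by number therefore cannot be decided from these values. Without the replicate block, 5 members were higher (2.09%, beside 2.07% of all tested genes) and 0 lower (beside 0.665%) at the adjusted threshold, both main calls among them, and 23 were higher (9.62%, beside 7.2%) and 11 lower (4.6%, beside 5.16%) at the unadjusted one. CR34335 then had a log2 fold change of 0.019, CR43626 of -0.042 and CR44206 of -1.07, each with the sign reversed.

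Other reversals concerned members that had not passed in the main comparison, of which Hsromega and CR34335 passed without both libraries numbered 1. With library size only the log2 fold change was -0.12 for CR42549 and -0.11 for CR44206, and for CR43459 it was 0.0017 with DESeq2 and 0.0026 with RLE factors. Over left-out libraries and numbers it ran from -1.97 to 0.41 for Hsromega, from -0.22 to 2.73 for flam, from -1.06 to 0.14 for CR42862, from -3.57 to 0.60 for CR34335, from -0.56 to 0.64 for CR42549 and from -0.43 to 0.17 for CR15345. Among miRNA-spanning members it ran from -0.75 to 0.91 for CR31044, from -0.44 to 3.22 for CR43314, from -1.02 to 0.42 for CR43459, from -0.84 to 1.73 for CR43626 and from -2.30 to 2.21 for CR44206. A minimum of 30 or 120 counts in place of 60 gave 356 or 266 members.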

Other observations

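Other lists were fixed as context for the members. The snoRNA host genes named Uhg, which are noncoding but carry no lncRNA prefix in the files and so were not members, had 7 tested genes with a median log2 fold change of -0.65 of Bam-GFP over control, and 0 passed the adjusted threshold in either direction. Their summed level was 52.8 to 119 CPM in Bam-GFP and 101 to 164 CPM in the control. Uhg5, at 8.38, 21.2 and 4.37 CPM against 11.7, 23.4 and 11.1 CPM, was listed in germ cells at a mean normalized count of 12880, more than any member but CR42862. Of the 86 tested cytoplasmic ribosomal protein genes, 0 passed upwards and 1 downwards, with a median of -0.31 and summed levels of 13700 to 52900 CPM in Bam-GFP and 20000 to 51700 CPM in the control.

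Markers of escort and niche cells had summed levels of 144 to 241 CPM in Bam-GFP and 72.1 to 95.3 CPM in the control. Nearly all of it was tj (log2 fold change 1.16, SE 0.35, edgeR adjusted p = 0.0438), so that the sum speaks for tj only. ptc went the other way, at 1.8, 0.99 and 1.68 CPM in Bam-GFP and 2.75, 3.4 and 9.95 CPM in the control (log2 fold change -1.65, SE 1.46, adjusted p = 0.895). hh and Wnt4 had 36 and 3 counts in all, and en was at 0. Of 6 muscle sheath markers 0 passed in either direction, with 677 to 1850 and 714 to 919 CPM. Of 4 tested markers of hemocytes and fat body 0 passed, with 16.0 to 92.8 and 10.4 to 23.8 CPM, and NimC1 was at 0.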
